A study of Mus musculus with 2 samples.

Results

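The 37 genes described here are genes that cells switch on in response to type I interferon. They were chosen by name from the 27809 genes of a count matrix of single CD45+ cells (leukocytes) of mouse hearts. The rule uses none of their values, but the choice was made with earlier results of these data known. All 37 were found in the matrix under their symbols. The cells came from male mice of a C57BL/6 background (C57BL/6N by the label) aged 8 weeks, 1 week after transverse aortic constriction (TAC), which loads the left ventricle with pressure, or after sham surgery. WT sham and WT TAC mice were wild type, and CD3ϵ-/- sham and CD3ϵ-/- TAC mice lacked the CD3ϵ chain in all tissues and with it their T cells. The fifth group was wild type, had TAC and is labelled CD8-depleted, which in the study means repeated injection of an antibody to CD8 from the day of surgery. All hearts were digested with collagenase and DNase, passed through Percoll and selected for CD45, and the cells of the 5 groups carried hashtags through 1 pooled TAS-Seq cDNA library on the BD Rhapsody system. How many mice stood behind a hashtag was not given in the sources used here. Each group was thus 1 sample without replicates, so no test could be made and no p-value is given, and intervals are exact 95% intervals that cover counting error only.

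Type I interferons bind the receptor of the chains IFNAR1 and IFNAR2, whose kinases JAK1 and TYK2 start a signal that ends in the complex ISGF3, of which STAT2 and IRF9 are parts. ISGF3 binds the interferon-stimulated response element (ISRE) in the promoters of many genes, among them sensors of viral nucleic acids, effectors that block viral replication and the factor IRF7 that sustains the response. In the stressed heart this response is best known from infiltrating monocytes and macrophages that take up nucleic acids of dying cells and sense them by cGAS and STING.

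To show what many of these promoters share, stretches of RefSeq promoters (GRCm38.p6) around the core of the response element, GAAA repeated after 2 bases of any kind, are printed for 5 members of different families and for the related pair Ifit3 and Ifit3b, 5′ to 3′ on the strand of the gene, with the core or its reverse complement in capitals.
Isg15, chr4:156200856-156200915, minus strand, 97 to 38 bases before the start: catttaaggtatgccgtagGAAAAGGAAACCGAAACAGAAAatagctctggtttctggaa
Rsad2, chr12:26456538-26456597, minus strand, 145 to 86 bases before the start: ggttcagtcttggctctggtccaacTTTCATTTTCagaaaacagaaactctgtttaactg
Ifit1, chr19:34640769-34640828, plus strand, 120 to 61 bases before the start: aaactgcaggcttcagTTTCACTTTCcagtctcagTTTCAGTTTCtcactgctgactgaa
Oas3, chr5:120777700-120777759, minus strand, 100 to 41 bases before the start: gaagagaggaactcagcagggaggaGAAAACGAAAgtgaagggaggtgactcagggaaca
Bst2, chr8:71537565-71537624, minus strand, 152 to 93 bases before the start: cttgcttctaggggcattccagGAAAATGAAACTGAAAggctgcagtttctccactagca
Ifit3, chr19:34583363-34583392, plus strand, 166 to 137 bases before the start: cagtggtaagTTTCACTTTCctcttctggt
Ifit3b, chr19:34607759-34607788, plus strand, 198 to 169 bases before the start: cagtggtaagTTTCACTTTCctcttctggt

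Isg15 holds 3 overlapping copies of the core in this stretch, and Ifit1 and Bst2 hold 2 each. The 30 bases of Ifit3 and Ifit3b are the same. For their 300-base promoters, the identical bases at the best shift, 32 bases, made 67% of the 300. Bases that the shift left without a partner counted as not identical, so the share among the bases compared is higher. RefSeq promoters, from 250 bases before to 50 bases after a start, were given for 28 of the 37 members. This core, searched on both strands, lay in 17 of these 28 (60.7%) and in 1079 of the 27025 genes with a promoter (3.99%). The core TTCNNNGAA of the gamma-activated site, an element of genes that respond to interferon gamma, lay in 4 of the 28 (14.3%; Bst2, Ifit2, Ifitm3 and Oas1a) and in 2582 genes (9.55%), and in 2 promoters a match of one core overlapped a match of the other. A match is a description of letters, and no binding was measured. Members of a family also share a chromosome. All 5 Ifit genes are on chromosome 19, all 5 Oas genes on chromosome 5 and the 4 Ifi200 genes on chromosome 1. The 4 Slfn genes are on chromosome 11, as are Xaf1 and Dhx58, which lie apart from them. On chromosome 5, Oasl1 and Oasl2 lie apart from Oas1a, Oas2 and Oas3. Of Ifit3 and Ifit3b, Ifit1 and Ifit1bl1, Mx1 and Mx2, and the Ifi200, Slfn and Oas families, members share sequence, and how reads that fit several genes were counted was not given in the sources used here, so the split of reads within these families is uncertain.

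The 5263 cells kept after filtering came to 1000, 835, 1615, 919 and 894 cells for sham hearts (WT, then CD3ϵ-/-) and TAC hearts (WT, CD3ϵ-/-, then CD8-depleted), the order in which 5 values are given throughout. The groups held between 91899777 and 208758777 reads, with medians of 75442 to 117788 reads per cell, highest in CD3ϵ-/- TAC. As a check of the labels, Cd3e in cells outside the gates was at 54.6, 2.18, 33.5, 3.67 and 66.4 reads per 1000000 reads (CPM), low in both CD3ϵ-/- groups. Cd8a was at 27.0, 0, 41.6, 2.45 and 34.6 CPM in the same cells, so its level in the group labelled CD8-depleted was near that of WT TAC. The T cell genes Cd3e, Cd3g (115 against 65.8 CPM) and Trac (172 against 76.1 CPM) were higher there than in WT TAC, so Cd8a was lower in relation to them, and that group is named by its label only. Gates on single-cell CPM gave 2939 macrophage-gate cells (Csf1r and Lyz2), 549 monocyte-gate cells (Csf1r, Lyz2 and Ly6c2), 406 dendritic-gate cells (Cd209a), 463 B-gate cells (Cd79a), 863 other cells and 43 cells left out as mixed. The monocyte gate held 27, 35, 168, 172 and 147 cells, or 2.70%, 4.19%, 10.4%, 18.7% and 16.4% of the cells kept. The 8 macrophage markers summed to 8382 to 11457 CPM in the macrophage gate and 1242 to 4042 CPM in the monocyte gate, while the 8 monocyte markers summed to 2582 to 5604 CPM and 9235 to 11108 CPM, so the order of both lists followed the names of the gates. Markers of other cells stood out in some places. The 9 dendritic markers, which include H2-Ab1 and Cd74, summed to 23692, 28504, 17881, 14870 and 16538 CPM in the macrophage gate. This sum was lower in all 3 TAC groups than in both sham groups, and its part in the results was not tested. B cell markers in the WT sham macrophage gate reached 2539 CPM, nearly all of it Igkc, against 23.8 to 34.2 CPM in the other groups, and the part of this in the results was not tested. The fibroblast gene Dcn reached 1239 CPM in the 27 WT sham monocytes and was at 0 in the other 4 groups of that gate. A list of 10 early response and heat shock genes that dissociation is known to induce summed to 15883, 14470, 7512, 6374 and 7472 CPM in the macrophage gate, lower in all 3 TAC groups than in both sham groups, and their part in the differences between TAC and sham was not tested.

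The monocyte gate had the highest levels of the whole set. The mean level over the 5 groups was highest in the monocyte gate among the 5 gates for all 37 members, 36 of which passed a mean of 20 CPM over the gates, whereas this held for 20.3% of all genes that passed. All 37 were also higher in the monocyte gate than in the macrophage gate in each of the 5 groups, against 18.4% of all genes. Summed over 36 members without Ifitm3, which alone made 16.4% to 35.01% of the reads of the set in these gates, the level was 7676, 6145, 11198, 12645 and 16852 CPM in the monocyte gate. In the macrophage gate the same sum was 1701, 1684, 3700, 3443 and 3847 CPM, and in the B gate 1309, 1291, 1622, 1728 and 1783 CPM. Both myeloid sums were thus higher in all TAC groups than in both sham groups, with the group labelled CD8-depleted highest in each. The ratio of monocyte to macrophage gate, from means over the groups, ranged from 1.70-fold for Slfn8 to 12.9-fold for Ifit1bl1, and was 10.6-fold for Slfn4 and 7.46-fold for Rsad2. Ly6c2, which sets the monocyte gate, is itself induced by interferon in some cells, and the part of this choice in the order of the gates was not tested. In 3 members the B gate stood above the macrophage gate: Ifi209 had a mean of 493 CPM in the B gate against 189 CPM in the macrophage gate, Ifi213 was at 93.7 CPM against 61.8 CPM, and Ifit1bl1 was at 16.2 CPM against 9.06 CPM.

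**Figure D1:**
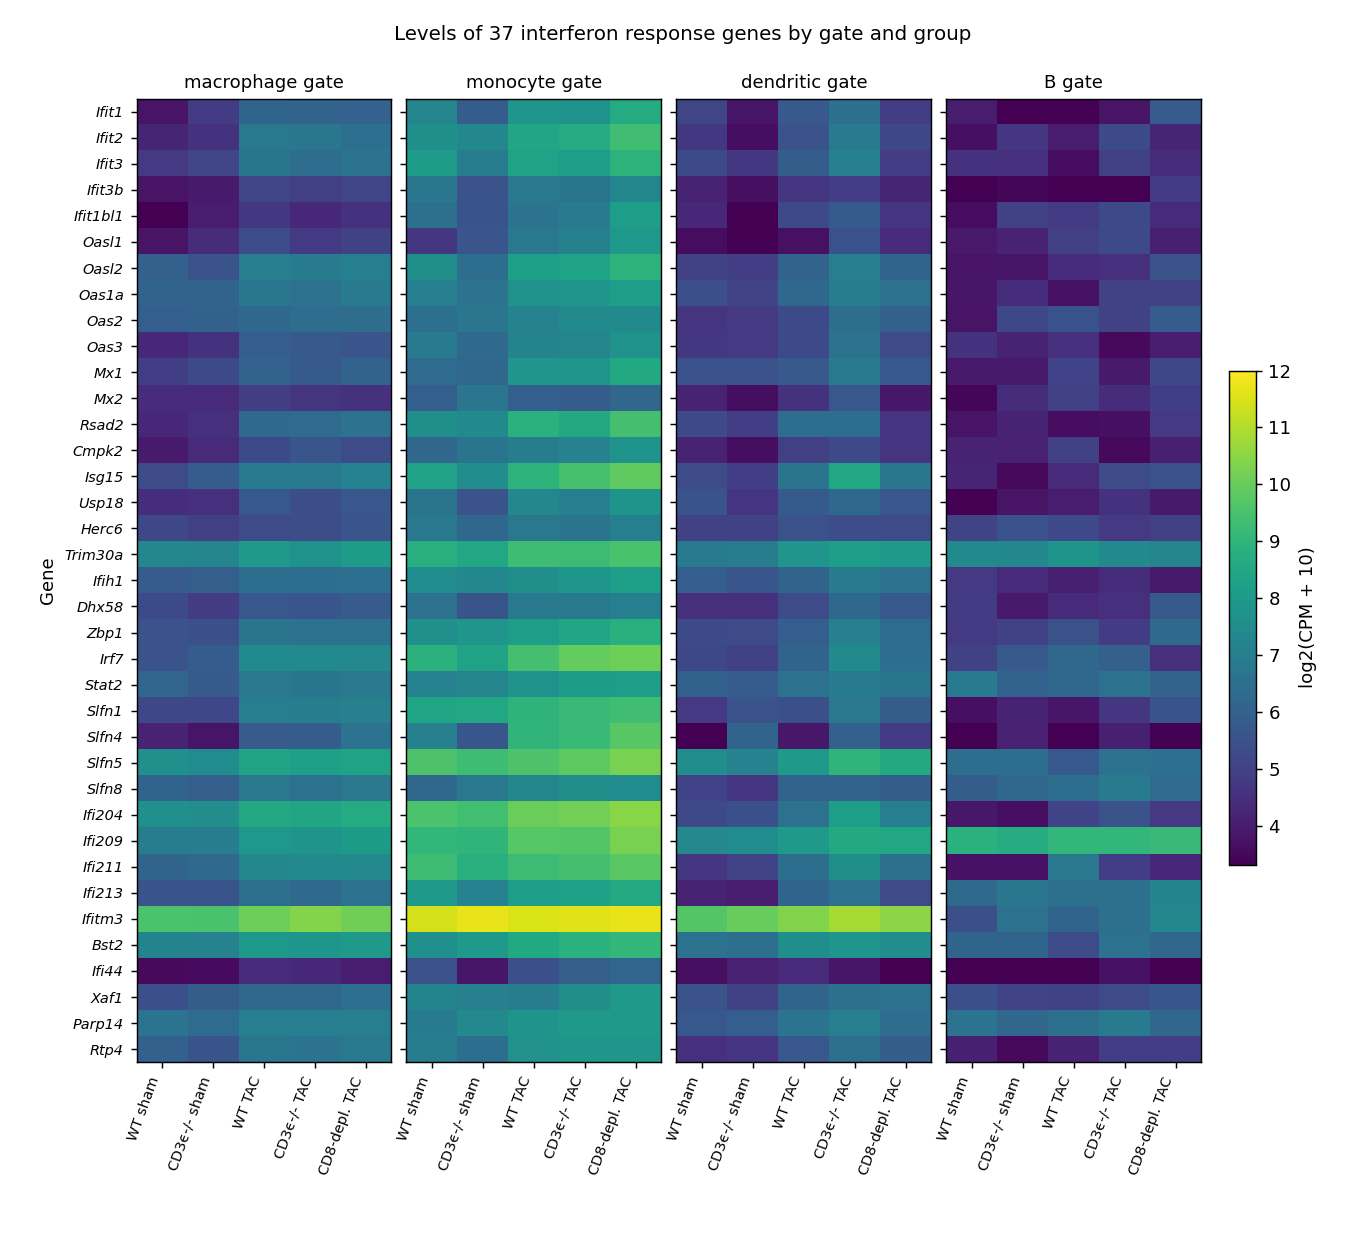
Heat map of the level of the 37 genes, as log2 of CPM plus 10, in 4 gates (columns grouped by gate) and the 5 groups within each gate, with genes in rows. Colour runs from dark blue (low) to yellow (high): the monocyte gate is brightest, with sums of 6145 to 16852 CPM without Ifitm3, and most genes are dark in the B gate, where Ifi209 is the brightest.

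In the macrophage gate TAC went with higher levels of the set in both genotypes. The monocyte markers in this gate, at 2582, 3235, 4407, 5604 and 3972 CPM, were also higher in all TAC groups than in both sham groups, and their part in the result was not tested. Of the 32 members with a mean of at least 20 CPM over the groups, 15 were at least 2-fold higher in WT TAC than in WT sham (0.838% of all genes tested) and none was 2-fold lower (0.509%). In CD3ϵ-/- TAC against CD3ϵ-/- sham, 14 were at least 2-fold higher (1.35%) and none lower (0.912%). All 32 were higher by some amount in both comparisons, against 56.9% and 60% of all genes, and all 32 lay higher in each of the 3 TAC groups than in both sham groups, against 26.1% of all genes. The median log2 ratio of the members, with 10 CPM added to each level, was 0.95 in WT and 0.88 in CD3ϵ-/-, beside 0.03 and 0.05 over all 6686 genes tested. The 5 members under the limit (Ifit3b, Ifit1bl1, Oasl1, Mx2 and Ifi44) had means of 6.16 to 16.9 CPM and were likewise higher in every TAC group than in both sham groups. The limit is a mean over all groups, TAC included. Members under 20 CPM in both sham groups, such as Ifit1 and Ifit2, thus passed through their TAC levels alone. All genes tested passed the same limit, and its part in the counts was not tested.

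The Ifit proteins bind foreign RNA. Ifit2 was at 8.47, 14.3, 105, 96.4 and 80.7 CPM, the largest log2 ratio of the set in this gate in both genotypes (2.64 in WT and 2.13 in CD3ϵ-/-). Ifit1, whose protein recognises RNA caps that lack methylation, was at 3.85, 18.5, 58.7, 57.9 and 56.3 CPM, a 15.3-fold (13.2 to 17.7) difference in WT and 3.13-fold (2.91 to 3.37) in CD3ϵ-/-, where folds with an interval, here and elsewhere, are ratios of the levels with no CPM added. Such intervals take reads as independent, which reads of 1 cell are not, so they are too narrow. In WT sham, 8 of 485 thinned macrophages had a read of Ifit1. Ifit3, which stabilises the Ifit1 complex, was at 17.1, 25.1, 94.7, 75.4 and 89.5 CPM. For each of the 3 genes the TAC groups lay close together and far above both sham groups, and the sham level of Ifit1 was higher in CD3ϵ-/- than in WT. Ifit3b followed Ifit3 at a lower level, with 3.83, 5.62, 24.8, 21.2 and 25.2 CPM. Ifit1bl1 had 0 reads in WT sham (upper limit 0.0732 CPM) and 5.70, 16.6, 9.49 and 13.5 CPM in the other groups.

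The Oas proteins make 2-5A, which activates RNase L. Oas3 was at 9.64, 14.2, 50.1, 43.7 and 38.9 CPM, a log2 ratio of 1.61 in WT and 1.15 in CD3ϵ-/-. Oasl2 was at 53.00, 36.1, 121, 108 and 125 CPM, and its ratio was 1.06 and 1.35. All 3 TAC levels exceeded both sham levels for these genes, but Oas1a (log2 ratios 0.64 and 0.48) and Oas2 (0.33 and 0.40) stayed under 2-fold. Rsad2 (viperin), which makes a nucleotide that stops viral polymerases, and Cmpk2, the kinase that supplies its substrate, lie next to each other on chromosome 12. Rsad2 was at 9.70, 12.4, 67.6, 72.7 and 88.7 CPM and Cmpk2 at 5.38, 10.9, 28.8, 38.4 and 30.2 CPM. Mx1, a gene of the dynamin-like GTPase family, was at 20.6, 28.8, 55.6, 44.8 and 58.04 CPM, with a log2 ratio of 1.10 in WT and 0.50 in CD3ϵ-/-. Rsad2 was thus several times higher in every TAC group, while Mx1 passed 2-fold in WT and not in CD3ϵ-/-, and that difference could not be tested.

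Isg15 is a ubiquitin-like protein that is joined to other proteins, and Usp18 takes it off and also dampens signalling at IFNAR2. Isg15 was at 29.2, 47.99, 109, 113 and 134 CPM, with log2 ratios of 1.60 in WT and 1.08 in CD3ϵ-/-. Usp18 was at 12, 12.3, 42.3, 31.3 and 41.5 CPM, and its ratios were 1.25 and 0.89. The ligase of this system in mice, Herc6, had the smallest ratio in WT (0.10), with 26.9, 21.3, 29.5, 31.3 and 39.3 CPM. Trim30a, a ubiquitin ligase of the same response, was at 152, 143, 247, 207 and 259 CPM, higher in each TAC group but under 2-fold. Of the factors and sensors, Irf7, the factor that amplifies interferon production, was at 36.95, 46.9, 167, 162 and 160.3 CPM, a 4.52-fold (4.31 to 4.74) difference in WT and 3.46-fold (3.31 to 3.62) in CD3ϵ-/-. Zbp1, a sensor of Z-form nucleic acids that can start necroptosis, was at 36.4, 32.9, 90.1, 87.5 and 83.5 CPM. The RNA sensor Ifih1 (MDA5) and its relative Dhx58 (LGP2) had log2 ratios of 0.63 and 0.41 in WT and 0.50 and 0.78 in CD3ϵ-/-. Stat2, the part of ISGF3 that is specific to interferon signals, had smaller ratios than Irf7, with log2 ratios of 0.61 and 0.92.

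Among the Schlafen genes, which regulate growth and survival of immune cells, 2 of 4 passed 2-fold. Slfn1 was at 27.3, 26.8, 122, 116 and 126 CPM and Slfn4, a gene of myeloid cells, at 8.19, 3.98, 45.9, 48.5 and 89.5 CPM. Slfn4 had the largest ratio of the set between TAC hearts labelled CD8-depleted and WT TAC (log2 0.83), still under 2-fold. Slfn5 was at 194, 175, 325, 291 and 313 CPM, among the highest levels of the set, and was under 2-fold in both comparisons, as was Slfn8 (0.67 and 0.64). The Ifi200 proteins bind DNA, and Ifi204 is a mouse counterpart of human IFI16. Ifi204 was at 197, 183, 364, 334 and 397 CPM, Ifi211 at 59.2, 67.4, 153, 165 and 160.2 CPM and Ifi209 at 119, 117, 239.8, 217 and 253 CPM. Of these 3 genes Ifi211 alone passed 2-fold, in both genotypes, while Ifi209 (0.95 and 0.84), Ifi204 (0.85 and 0.83) and Ifi213 (0.95 and 0.71) were near it.

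Ifitm3, which blocks fusion of viruses in endosomes, was the most read member, at 743, 724, 1077, 1323 and 1109 CPM. Bst2 (tetherin), which holds budding virions at the cell surface, was at 139.9, 134, 239, 227 and 244 CPM. Parp14, an ADP-ribosyl transferase, was at 88.1, 71.5, 122, 119.9 and 121 CPM, and Rtp4, a chaperone of receptors, at 53.1, 37.8, 96.2, 89.9 and 105 CPM. These 4 genes were already read in sham hearts, and the log2 ratios of TAC to sham ran from 0.43 to 0.75 in WT and lay between 0.67 and 1.06 in CD3ϵ-/-. Xaf1, which promotes cell death, had ratios of 0.79 and 0.38. In WT all 4 and Xaf1 lay below the median of the set, and in CD3ϵ-/- Rtp4 passed 2-fold.

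Between groups of the same surgery the macrophage gate differed little. CD3ϵ-/- sham and WT sham differed by 2-fold in 1 of 32 members, Ifit1 (log2 ratio 1.04; 0.269% of all genes higher), and none was lower (0.179%), and the median was −0.01. CD3ϵ-/- TAC and WT TAC differed by 2-fold in no member, with 0.254% of all genes higher and 0.165% lower, and the median was −0.06. TAC hearts labelled CD8-depleted and WT TAC did so in no member either (0.12% and 0.0748%), with a median of 0.05. These comparisons share WT sham or WT TAC with the comparisons of TAC with sham. With 1 sample a group, such small differences do not show that the groups were alike.

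In the monocyte gate the ratios of TAC to sham rest on 27 and 35 sham cells. In WT TAC against WT sham, 5 of 37 members were at least 2-fold higher (5.88% of all genes) and none lower (2.96%). In CD3ϵ-/- TAC against CD3ϵ-/- sham, 18 were at least 2-fold higher (5.44%) and none lower (2.51%). By any amount, 33 and 35 of 37 were higher, against 54.6% and 50.7% of all genes. The median log2 ratio of the members was 0.56 and 0.98, beside 0.05 and 0.01 over the 6377 genes tested. The sham groups differed as well: 8 members were at least 2-fold lower in CD3ϵ-/- sham than in WT sham (6.15%) and none higher (6.34%), with a median of −0.29. The early response and heat shock genes summed to 12638, 10201, 9533, 9086 and 8893 CPM here, and T and NK cell markers to 322 CPM in WT sham against 4.55 to 75.1 CPM elsewhere, and their part was not tested. Leaving out in each group the 5 cells with the most member reads changed these counts, with 8 members at least 2-fold higher and 2 lower in CD3ϵ-/- sham than in WT sham, and 35 at least 2-fold higher in WT TAC than in WT sham. This choice uses the member reads and takes 5 of 27 cells in WT sham but 5 of 168 in WT TAC, so it lowers the smaller group more by construction. With Chil3 in place of Ly6c2 in the monocyte gate, 29 members were at least 2-fold higher in WT TAC than in WT sham.

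**Figure D2:**
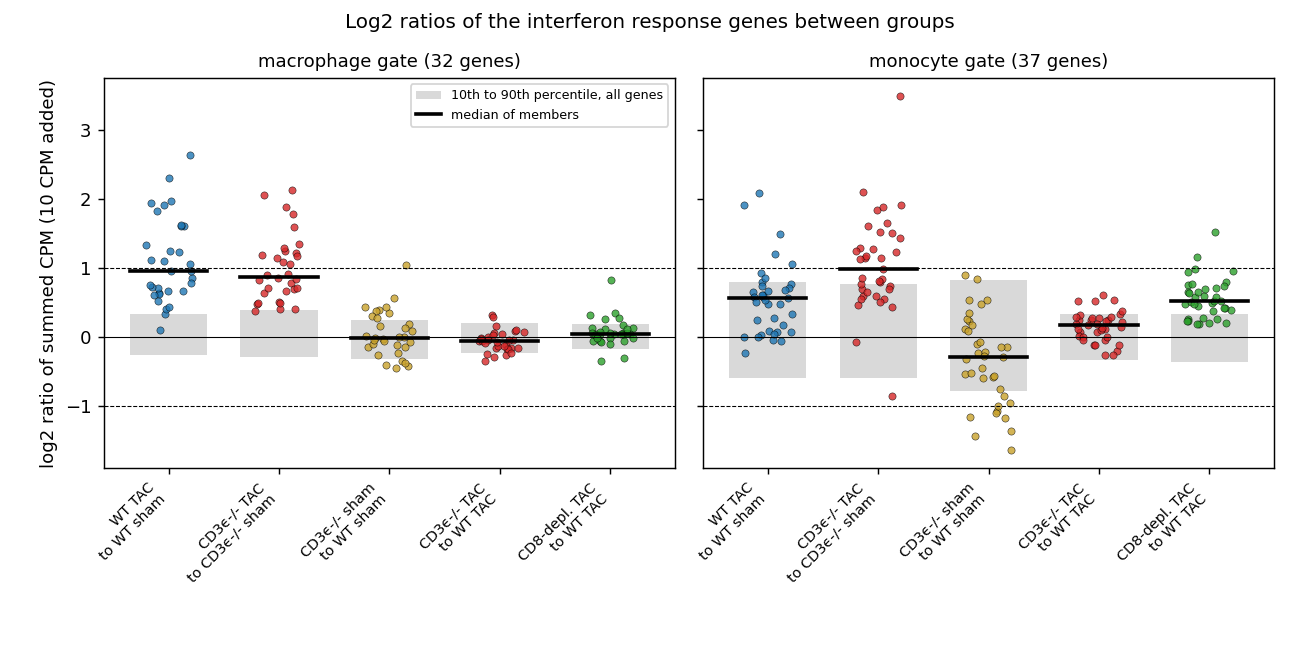
Log2 ratios of the members between groups, with 10 CPM added, in the macrophage gate (32 genes) and in the monocyte gate (37 genes), 1 point per gene and 1 column per comparison. The black line is the median of the members, the grey band runs from the 10th to the 90th percentile of all genes tested and the dashed lines mark 2-fold; in the macrophage gate the medians of 0.95 and 0.88 for TAC to sham lie above the band, and the medians of the other comparisons lie near 0.

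The levels by family in this gate were as follows, in the same order of groups. Ifit2 was at 191, 155, 331, 393 and 642 CPM, Ifit1 at 143, 49.6, 219.7, 203 and 391 CPM and Ifit3 at 259, 118, 316, 273 and 479 CPM. The Ifit levels were lowest in CD3ϵ-/- sham and highest in TAC hearts labelled CD8-depleted, and WT sham lay within 2-fold of WT TAC. Ifit3b was at 95.5, 36.8, 102, 93.4 and 146 CPM. Ifit1bl1, a relative of Ifit1, was at 82.04, 37.7, 87.8, 106 and 272 CPM, with a log2 ratio of 1.53 of TAC hearts labelled CD8-depleted to WT TAC, the largest of that comparison. Oasl1, which represses translation of Irf7, was at 16.1, 38.97, 101, 129 and 236 CPM and had the largest ratio of WT TAC to WT sham (2.08). It was also the other member that passed 2-fold in TAC hearts labelled CD8-depleted against WT TAC (1.15).

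Oasl2 was at 188, 78.4, 292, 317 and 478 CPM, with a log2 ratio of 1.89 of TAC to sham in CD3ϵ-/-. Oas1a was at 125, 89.2, 209.7, 222 and 278 CPM and Mx1 at 72.2, 66.7, 220.3, 223 and 378 CPM, and Mx1 passed 2-fold in both genotypes (1.49 and 1.60). Rsad2 was at 192, 162, 454, 378 and 687 CPM and passed 2-fold in both as well (1.20 and 1.17). Mx1 and Rsad2 were therefore higher in each TAC group than in both sham groups, with the highest level in the group labelled CD8-depleted. Mx2 went another way: it was highest in CD3ϵ-/- sham, with 49.8, 96.6, 50.8, 48.98 and 62.9 CPM, and was 1 of 2 members lower in CD3ϵ-/- TAC than in CD3ϵ-/- sham (log2 ratio −0.85; Ifitm3, −0.07). Isg15 was at 310.4, 179, 480.4, 705 and 943 CPM, a 3.93-fold (3.66 to 4.21) difference in CD3ϵ-/- and 1.55-fold (1.46 to 1.64) in WT. Usp18 was at 91.3, 37.02, 151, 125 and 214 CPM, lower in CD3ϵ-/- sham than in every other group. Dhx58 was at 85.5, 37.7, 103, 104 and 123 CPM and Irf7 at 469.7, 308, 688, 987 and 1075 CPM, the latter with log2 ratios of 0.54 in WT and 1.65 in CD3ϵ-/-.

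Slfn4 had the widest spread of the set in monocytes, with 126, 40.5, 503, 559 and 843 CPM, a log2 ratio of 1.92 of TAC to sham in WT and 3.50 in CD3ϵ-/-. Slfn1 was at 331, 353, 493, 581 and 642 CPM, Slfn5 at 757, 624, 761, 922 and 1198 CPM and Slfn8 at 66.95, 101, 149.6, 186 and 173 CPM. Slfn4 differed several-fold between the surgeries, while Slfn5 in WT TAC was level with WT sham. The Ifi200 genes were high throughout: Ifi204 was at 729, 657, 1042, 1127 and 1392 CPM, Ifi209 at 522, 499, 841, 813 and 1212 CPM and Ifi211 at 628, 432, 608, 686 and 867 CPM. Ifi213 was at 252, 135, 284, 306 and 385 CPM and passed 2-fold in CD3ϵ-/- (1.13). Ifitm3 was at 2773, 3311, 2870, 3148 and 3314 CPM, the most even member of this gate. Trim30a was at 437, 349.6, 616, 614 and 722 CPM and Rtp4 at 115, 77.5, 199, 228 and 230.4 CPM. Ifi44, a gene of unclear function, had 131, 20, 799, 1461 and 1191 reads, or 34.7, 4.33, 33.1, 51.7 and 60.7 CPM, and its ratio of 2.11 in CD3ϵ-/- rests on those 20 reads. The other members of this gate, Oas2, Oas3, Cmpk2, Herc6, Ifih1, Zbp1, Stat2, Bst2, Xaf1 and Parp14, had means of 96.0 to 361 CPM and were under 2-fold in all 5 comparisons, and 30 of the 37 members were higher in each TAC group than in both sham groups (22.2% of all genes).

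Among the TAC groups, monocytes of the group labelled CD8-depleted had the highest levels. Its level exceeded that of WT TAC for all 37 members, against 47.8% of all genes, with a median log2 ratio of 0.52 beside −0.01 over all genes and a range from 0.19 for Parp14 to 1.53 for Ifit1bl1. At 2-fold, 2 members passed (0.141% of all genes higher) and none was lower (0.157%), and 33 of the 37 had their highest level of the 5 groups there (17.3%). With no CPM added, the difference was 1.96-fold (1.92 to 2.01) for Isg15, 1.94-fold (1.89 to 1.998) for Ifit2 and 2.06-fold (1.96 to 2.16) for Xaf1. CD3ϵ-/- TAC and WT TAC were closer: 28 of 37 were higher (48.6% of all genes), none by 2-fold (0.0941% higher, 0.282% lower), with a median of 0.17. These 3 groups share WT TAC as the reference of both comparisons. The share of monocyte-gate cells with Ly6c2 of at least 2000 CPM also differed, at 33.3%, 54.3%, 38.1%, 52.3% and 57.1%. Within the cells at or above that limit (64 in WT TAC, 84 in the group labelled CD8-depleted) the median ratio of the latter to WT TAC was 0.26, with 1 of 37 members at 2-fold (1.27%). Below it (104 and 63 cells) the median was 0.57, with 4 of 36 at 2-fold (0.752%). This split was chosen after the data were seen. The neutrophil markers in the macrophage gate were 57.7, 146, 162, 133 and 314 CPM, highest in the group labelled CD8-depleted, while in its monocyte gate they were at 135 CPM and those of WT TAC at 139 CPM.

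Splits of the macrophage gate, chosen after the data were seen, all had members at 2-fold after TAC. Cells with Lyve1, Folr2 or Cd163, which mark resident macrophages, made 37.4%, 21.9%, 19.4%, 17.8% and 27.2% of the gate. In these, 11 of 30 members were at least 2-fold higher in WT TAC than in WT sham (1.19% of all genes; median 0.72), and 8 of 30 in CD3ϵ-/- (3.97%; median 0.39). In the rest of the gate it was 14 of 32 in WT (0.845%; median 0.96) and 14 of 32 in CD3ϵ-/- (1.22%; median 0.96). Summed without Ifitm3, the level was 1666, 1870, 3181, 2689 and 3077 CPM in the first and 1717, 1645, 3802, 3630 and 4076 CPM in the second. The sham levels of both kinds of cells were therefore nearly the same, and the TAC levels lay above them in both. By Ccr2, a receptor of cells that derive from blood monocytes, 14 and 13 of 32 members passed 2-fold in cells of at least 500 CPM (1.05% and 1.35%), and 13 and 14 in cells below it (1.32% and 2.13%), for WT and CD3ϵ-/-. The Ccr2-high share of the gate was 35.6%, 47.6%, 57.8%, 59.1% and 48.6%, higher in all TAC groups than in WT sham.

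**Figure D3:**
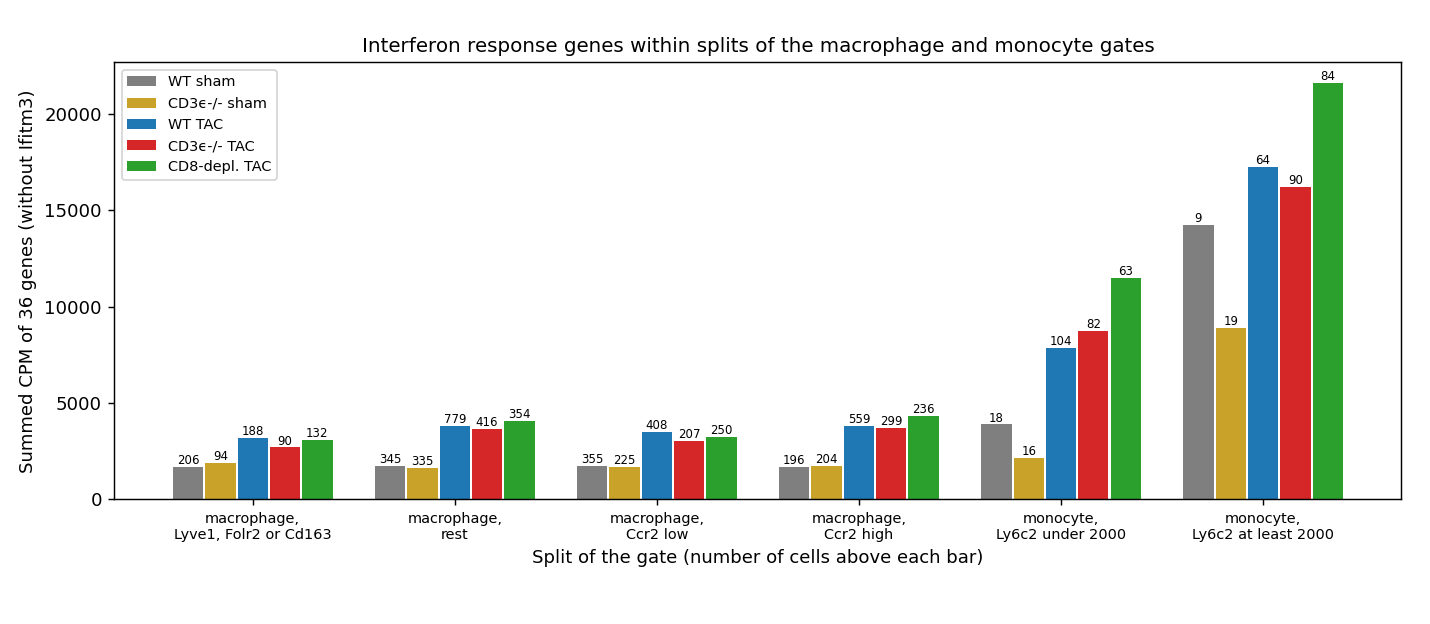
Bars of the summed level of 36 members without Ifitm3, in CPM, for each of the 5 groups in 6 classes of cells: macrophage-gate cells with Lyve1, Folr2 or Cd163, the rest, Ccr2-low and Ccr2-high cells, and monocyte-gate cells under and at or above 2000 CPM of Ly6c2, with the number of cells above each bar. Sham bars of the 4 macrophage classes stand between 1645 and 1870 CPM and their TAC bars between 2689 and 4345 CPM.

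The number of members read differed among cells and among gates. After each cell was thinned to 34832 reads, the median number of the 37 genes read per macrophage was 6, 6, 9, 11 and 9, and cells with at least 15 of them made 6.39% (4.38 to 8.95), 8.59% (5.99 to 11.9), 24.5% (21.7 to 27.5), 30.2% (26.1 to 34.6) and 26.4% (22.4 to 30.7). The shares of the TAC groups lay above those of both sham groups. Their intervals count cells of 1 sample a group, so they do not compare conditions. In monocytes the medians were 12, 12, 19, 23 and 25, and such cells made 44.4%, 40.0%, 64.7%, 80.8% and 84.6%. B cells had a median of 3 in all groups, and 0 to 2 B cells per group reached 15. The class is a range and not a type, as 47 to 159 macrophages per group had 12 to 17 of the genes. The top 10% of macrophages held 32.2%, 37.7%, 46.9%, 45.9% and 50.6% of the reads of the set without Ifitm3, a larger part in each TAC group than in both sham groups. In B cells this part was 33.7%, 37.7%, 36.4%, 35.1% and 35.1%, near that of sham macrophages. In monocytes it was 44.6%, 45.8%, 38.4%, 32.1% and 33.3%, smaller in each TAC group than in both sham groups. No such share is given for other genes. For single genes, the share of thinned macrophages with a read of Ifit1 was 1.65, 3.12, 10.7, 9.94 and 9.23%, that of Rsad2 3.09, 3.65, 11.9, 12.3 and 12.5% and that of Irf7 10.9, 12.8, 32.00, 38.5 and 30.8%. In thinned B cells these were 1.49, 0, 0, 1.79 and 5.26%, 2.98, 2.27, 1.45, 1.79 and 1.75% and 7.46, 10.2, 11.6, 8.93 and 3.51%. The sham shares of Ifit1 in macrophages lie within the range of the B cells, whose upper end rests on 3 of 57 cells. Those of Rsad2 and Irf7 lie close to its upper end, and the TAC shares of all 3 genes lie above it. B cells themselves read members of the set, so their range is a comparison and not a background. Before thinning, cells of the TAC groups had more reads (medians of 95766 to 120699 against 73171 and 78885 in macrophages).

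**Figure D4:**
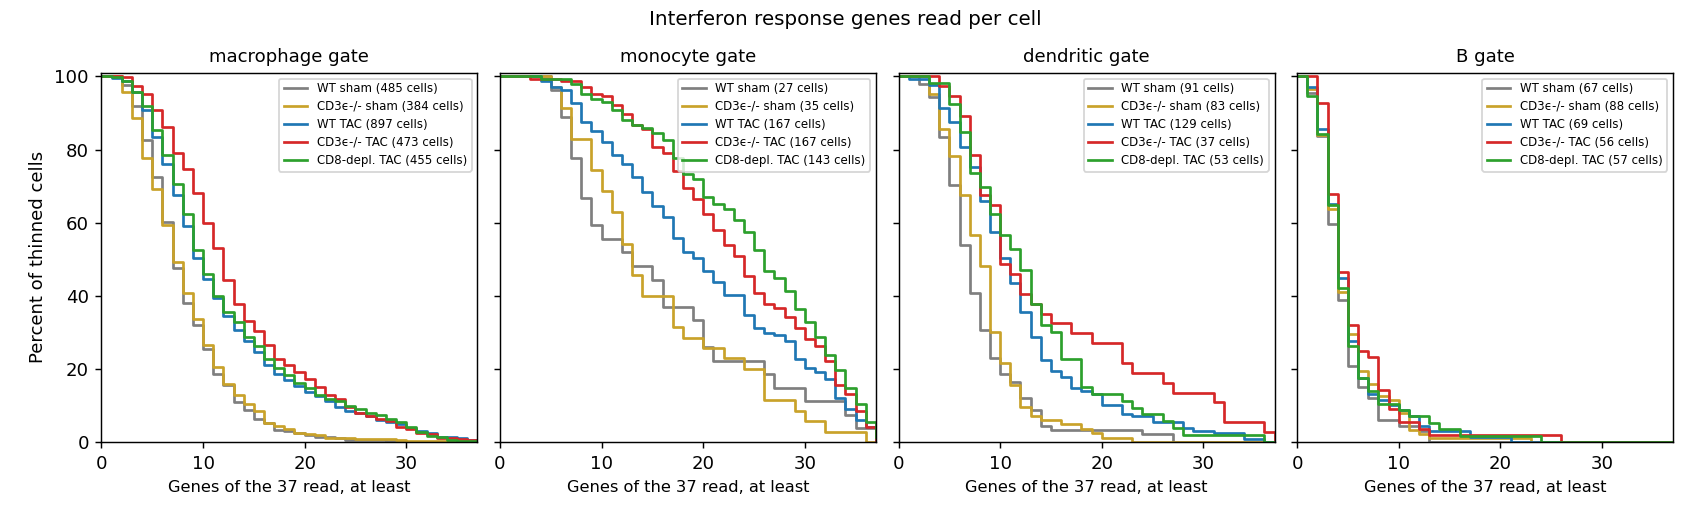
Percent of thinned cells (34832 reads each) with at least the number of members given on the x axis, in 4 gates and 5 groups. Macrophage curves of the 3 TAC groups lie above those of the sham groups from about 6 members on, monocyte curves lie farthest right, and the B curves of the 5 groups overlap.

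Among cells the members varied together to different degrees. As a description, Pearson's r of log2 thinned counts plus 1 was computed within each group and the median over the 5 groups taken, over 2694 macrophages and 539 monocytes that share a library, a depth and their gates. The median of 666 pairs was 0.261 in macrophages, where 20 pairs passed 0.5, and 0.425 in monocytes, where 184 did. Members were read more in monocytes, whose sham groups had 27 and 35 cells, so these values do not compare the gates. No r of other gene pairs is given beside them. The closest pairs were Ifit3 with Ifit3b (0.678), whose reads may be shared, and Ifit2 with Rsad2 (0.675) in macrophages, and Ifit2 with Ifit3 (0.802), Ifit3 with Rsad2 (0.771) and Ifit2 with Rsad2 (0.753) in monocytes. Rsad2 lies on another chromosome than the Ifit genes. By median r to the other members, the loosest in macrophages were Ifi44 (0.120), Slfn4 (0.125), Bst2 (0.159) and Mx2 (0.174), and in monocytes Ifi44 (0.184), Ifitm3 (0.305), Dhx58 (0.341) and Oas1a (0.343). In sparse counts a weak r is no finding.

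**Figure D5:**
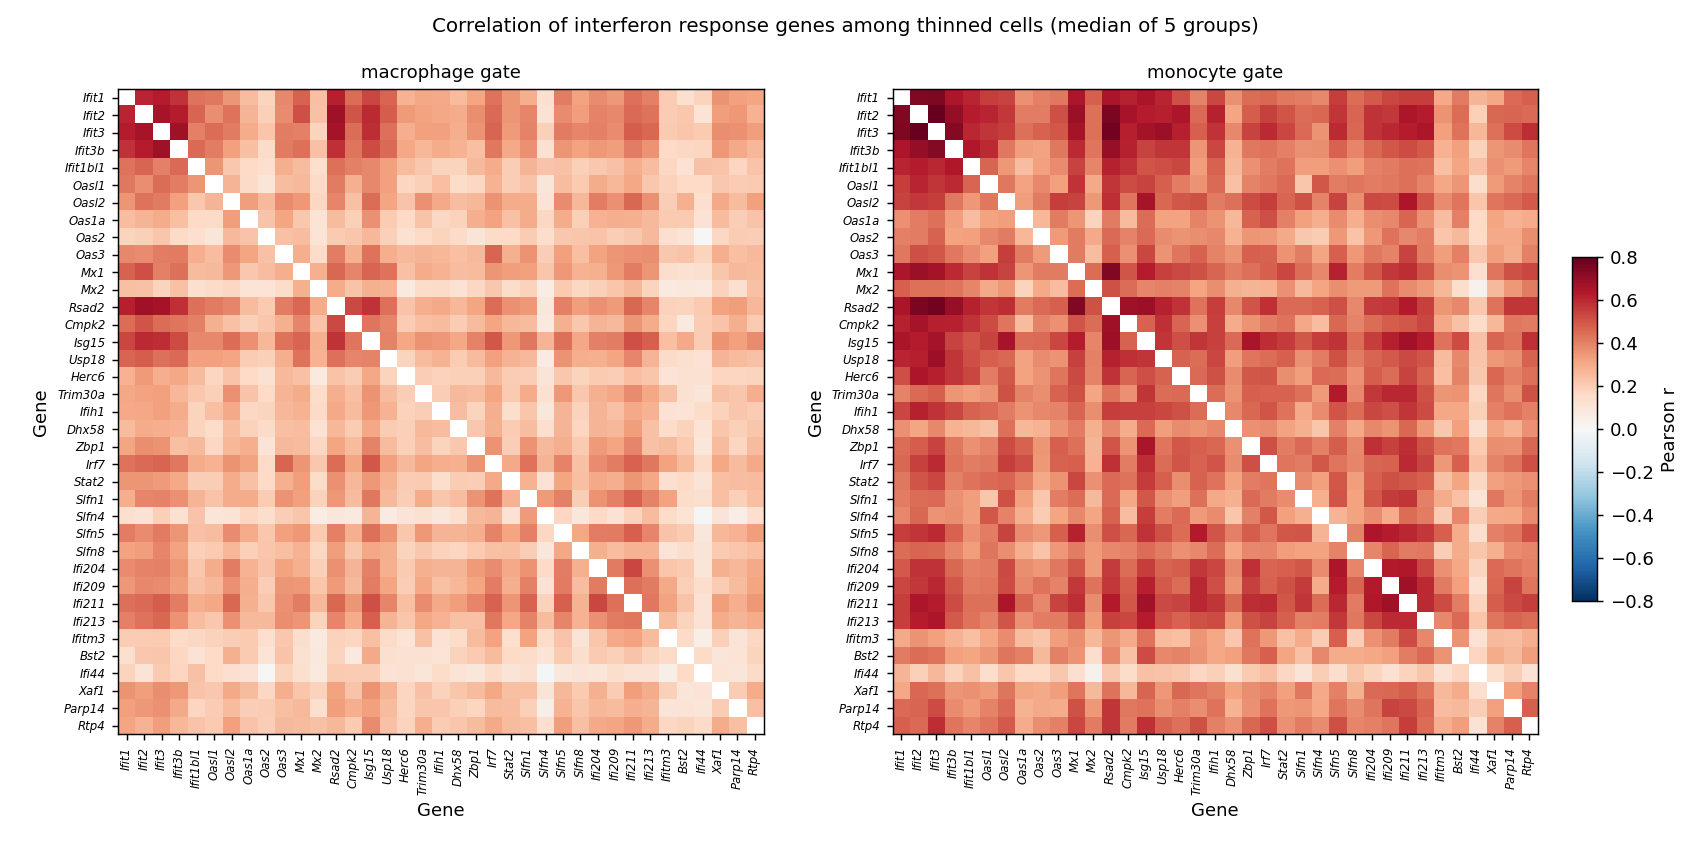
Heat maps of Pearson's r among cells for each pair of the 37 genes, the median of 5 groups, in the macrophage gate and the monocyte gate. The Ifit genes, Rsad2 and Isg15 form the block of the highest r, up to 0.678 in macrophages and 0.802 in monocytes, and the rows of Ifi44 and, in macrophages, Slfn4 are pale.

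Dendritic-gate cells showed the set too, in few cells. Of 31 members that passed 20 CPM, 9 were at least 2-fold higher in WT TAC than in WT sham (1.53% of all genes; median 0.67) and 28 in CD3ϵ-/- (4.38%; median 1.71), the latter from 37 TAC cells. Isg15 was at 29.5, 20.6, 90.5, 349 and 96.7 CPM there and Irf7 at 26.7, 23.03, 57.9, 166 and 78.5 CPM, both highest in CD3ϵ-/- TAC. Monocyte markers in this gate summed to 2443, 3216, 3008, 5321 and 2997 CPM, also highest in these 37 cells, and their part was not tested. Against WT TAC, 12 members were at least 2-fold higher in CD3ϵ-/- TAC (1.85%), a count that rests on 37 cells against 131. In TAC hearts labelled CD8-depleted 2 were at least 2-fold lower than in WT TAC, Rsad2 and Ifit3 (0.539%). In the B gate, 15 members passed 20 CPM, and 3, 1, 2, 1 and 1 of them were at least 2-fold higher in the 5 comparisons, with 4.43%, 3.3%, 3.24%, 3.32% and 3.6% of all genes. Ifi209 was at 451, 405, 532, 520.4 and 559 CPM in B cells, even across the groups.

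Cells outside the gates, a mix of T and NK cells, cross-presenting dendritic cells, neutrophils and others, had the largest median ratio of TAC to sham among the gates in WT. All 36 members that passed were at least 2-fold higher in WT TAC than in WT sham (3.7% of all genes; median 1.83), and 33 were in CD3ϵ-/- (4.11%; median 1.71). Slfn4 was at 1.57, 1.5, 234, 275 and 609 CPM, Irf7 at 28.9, 36.7, 333, 259.8 and 313 CPM and Isg15 at 17.3, 17.8, 247, 298 and 384 CPM. For each the lowest TAC level lay several times above the highest sham level. The limit of 20 CPM is a mean over all groups, TAC included. Members under it in both sham groups, such as Slfn4 and Rsad2, thus passed through their TAC levels alone. All genes tested passed the same limit, and its part in the counts was not tested. The makeup of these cells differed between the groups. Non-leukocyte markers summed to 2159.6, 2990.3, 346, 1451 and 1646 CPM, monocyte markers to 828, 1078, 2079.6, 2787 and 2104 CPM and macrophage markers to 969, 1111, 2149.7, 2185 and 1430 CPM. The early response and heat shock genes summed to 18296 and 20872 CPM in the sham groups and 7375 to 8884 CPM in the TAC groups. The first list was lower and the next 2 higher in every TAC group than in both sham groups, and the part of these shifts in the ratios was not tested. Cells with at least 1000 CPM of S100a8, a neutrophil gene, numbered 0, 4, 9, 10 and 15, and the summed level of the members in them, without Ifitm3, was 9690, 21520 and 42990 CPM in the 3 TAC groups. In TAC hearts labelled CD8-depleted, 7 members were at least 2-fold higher than in WT TAC (2.67%). Xcr1 cells (29, 26, 52, 13 and 15) had 16 of 21 members at least 2-fold higher in WT TAC than in WT sham (3.75%), with sums of 1545, 1413, 4398, 3909 and 2039 CPM. Both splits were chosen after the data were seen.

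Genes of the pathway around the set were counted from lists of their own. In the macrophage gate Ifnar1 was at 179.9, 159, 188, 169.7 and 191 CPM, Ifnar2 at 151, 132, 208, 204 and 201 CPM and Irf9 at 113, 83.7, 102, 95.7 and 125 CPM. The receptor was thus read in every group at levels that differed by less than 2-fold. Of 10 sensing genes and 7 negative regulators that passed 20 CPM, none reached 2-fold in either genotype. In monocytes Ifnar1 was at 85.5, 178, 193, 189 and 202 CPM, Ifnar2 between 169 and 231 CPM and Irf9 at 77.3, 131, 131, 150.3 and 147 CPM. Of 11 sensing genes there, 3 passed 2-fold in WT (5.88% of all genes), the DNA-sensing genes Cgas (log2 ratio 1.62) and Sting1 (1.11) and the RNA-sensing adaptor Mavs (1.06). In CD3ϵ-/- 1 did (5.44%), the RNA sensor Ddx58 (1.59), while Cgas was at 0.91 and Sting1 at 0.92. In the 27 WT sham monocytes Cgas had 51 reads, Sting1 250 and Mavs 19, so the WT ratios of Cgas and Mavs rest on few reads. In the macrophage gate, of 56 further interferon-induced genes, 7 were at least 2-fold higher in WT (0.838% of all genes; median 0.48) and 5 in CD3ϵ-/- (1.35%; median 0.46), and none lower. The largest ratios in WT were those of Ly6a (Sca-1), at 10.1, 15.99, 88.7, 147 and 81.2 CPM, Ms4a4c, at 55.2, 71.3, 203, 186 and 221 CPM, and the chemokine gene Cxcl10, at 24.7, 35.2, 94.1, 61.3 and 118 CPM. In CD3ϵ-/- they were those of Ly6a (2.59), Ms4a4c (1.27) and the Fc receptor gene Fcgr1 (1.12), and Cxcl10 (0.66) was under 2-fold. In monocytes 6 of 62 such genes were higher and 2 lower in WT, near the shares of all genes (5.88% and 2.96%), and 18 were higher and 1 lower in CD3ϵ-/- (5.44% and 2.51% of all genes). Ly6a was there at 12.7, 22.5, 546, 1236 and 1016 CPM, the largest ratio in both genotypes (4.61 and 5.26). Of genes that interferon gamma also induces, Cxcl9 was at 87.3, 9.09, 15.3, 140.1 and 87.2 CPM and Iigp1 at 142, 21.2, 26.5, 50.2 and 87.7 CPM, the former highest in CD3ϵ-/- TAC, the latter in WT sham, and both at least 2-fold lower in CD3ϵ-/- sham than in WT sham.

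The type I interferon genes looked at were close to unread. Ifnb1 had a read in 4, 2, 1, 3 and 1 cells of the groups, Ifna16 in 2, 1, 2, 0 and 1 and Ifnz in 0, 2, 3, 3 and 0. Ifng, the type II interferon, had reads in 27, 7, 19, 8 and 19 cells, fewest in both CD3ϵ-/- groups. Other interferon genes were not analysed here. The source of type I interferon was therefore not determined, and no order of the groups is read from 0 to 4 cells.

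The share of cells in each gate differed between the groups, so the level over all cells was also computed at a fixed makeup. Over all cells the median log2 ratio of the 37 members was 1.20 in WT and 1.45 in CD3ϵ-/- as found. With the share of WT sham reads in each gate held in every group it was 1.03 and 1.07. This alternative was chosen after the data were seen. For CD3ϵ-/- TAC against WT TAC the median went from 0.23 to 0.09, and for TAC hearts labelled CD8-depleted against WT TAC from 0.37 to 0.18.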

How the data were processed

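Single CD45+ cells of mouse hearts were profiled with TAS-Seq, from 1 pooled BD Rhapsody library, with groups told apart by hashtags named in the deposited notes. The authors deposited raw read counts per gene and cell (27809 genes), and the submitters' processing notes name cutadapt 2.10, Bowtie2 2.4.2 and GRCm38; the annotation and the handling of reads that fit several genes were not given in the sources used here. Counts are reads and not molecules. Of 5363 cell columns, 48 without a single hashtag (40 doublets and 8 with none detected) were not used, and no further doublet caller was run; 43 cells that fit several gates were left out. Cells with at least 500 genes and a mitochondrial share of at most 0.4 were kept.

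Reads were summed per gate and group and scaled to 1000000 reads (CPM), which are not corrected for gene length, so a gene is compared between groups and gates only. Gates used single-cell CPM in turn: Cd79a of at least 500 (B), Csf1r of at least 100 with Lyz2 of at least 1000 and Ly6c2 of at least 500 (monocyte), Cd209a of at least 200 (dendritic), and Csf1r of at least 100 with Lyz2 of at least 1000 (macrophage). Ratios are log2 of CPM plus 10; a gene was counted as higher or lower at 2-fold among genes with a mean of at least 20 CPM over the groups, in sets of at least 20 cells. The limit of 20 CPM takes in the TAC groups, so a gene low in sham can pass through its TAC levels alone. Intervals are exact Poisson intervals for reads and Clopper-Pearson intervals for shares, at 95%. Those of reads take reads as independent, which reads of 1 cell are not, so they are too narrow. Cells were thinned to 34832 reads, the 10th percentile, for shares of cells and correlations, leaving out shallower cells. The members and the gene lists were chosen with earlier results of these data known. Named in full were, in the macrophage and monocyte gates, the 10 members of highest mean CPM and every member at least 2-fold different in a comparison; of other lists, counts, set genes and the largest ratios; 1 gene of these lists is not reported here. Alternatives were other fold limits, added CPM, gates, averaging over cells, thinning and leaving out cells with most member reads. Promoter sequences are from RefSeq (GRCm38.p6). Python 3.11.15, numpy 2.4.6, pandas 2.3.3, scipy 1.17.1 and matplotlib 3.10.9 were used.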

Additional observations from a re-analysis of the deposited data

Results flagged for a closer look

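For 3 values the difference between CD3ϵ-/- and WT mice went in opposite directions in sham and in TAC, by at least 1.5-fold each; with 1 sample a group, the difference between the contrasts was not tested. In the dendritic gate, Ifit1 had a log2 ratio of CD3ϵ-/- to WT of −1.34 in sham and 0.80 in TAC, a difference of 2.14. Ifit2 in the same gate had −1.10 in sham and 1.37 in TAC, a difference of 2.47. Both rest on 37 CD3ϵ-/- TAC cells, and without the 5 cells of most member reads in each group, a choice that uses the measured values, the sham ratio of Ifit1 was 0.24. The sham ratios rest on few cells as well. Of 91 WT and 83 CD3ϵ-/- thinned sham cells, 4 and 3 had a read of Ifit1, and 3 and 3 one of Ifit2. Before thinning, the sham groups had 343 and 58 reads of Ifit1 and 224 and 35 of Ifit2. In cells outside the gates, Mx1 had 1.14 in sham and −0.73 in TAC, a difference of −1.87.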

How the results depend on the processing

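No paired analysis was possible because all groups came from 1 pooled library and carry no replicate numbers. In every alternative that gave a value, other than the splits added later, the median log2 ratio of the members was above 0 for TAC to sham in both myeloid gates: 0.60 to 1.05 in WT and 0.60 to 1.31 in CD3ϵ-/- macrophages, and 0.48 to 1.87 and 0.73 to 1.56 in monocytes. For the group labelled CD8-depleted TAC against WT TAC in monocytes it was 0.27 to 0.60, and for CD3ϵ-/- sham against WT sham −0.30 to 0.64. With double gate limits the monocyte comparisons with WT sham gave no value, as under 20 cells remained. Leaving out 5 cells uses the member reads and takes a larger share of small groups, which lowers those by construction. The causes of the other changes below were not tested, beyond what a looser or stricter limit does by construction.

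In macrophages, members called higher numbered 27 in WT TAC and 25 in CD3ϵ-/- TAC against their shams at a fold of 1.5, 6 and 3 with 50 CPM added, and in CD3ϵ-/- 26 when the monocyte gate used Chil3 and 8 in Lyve1, Folr2 or Cd163 cells. For CD3ϵ-/- sham against WT sham the count was 0 with 50 CPM added, the Chil3 gate, the mean of single cells, thinned cells, without the 5 cells of most member reads, and with Ccr2 under 500 CPM. For CD3ϵ-/- TAC against WT TAC it was 3 with the Chil3 gate and 1 in Lyve1, Folr2 or Cd163 cells. For the group labelled CD8-depleted it was 4 with the Chil3 gate and 1 at a fold of 1.5, with the mean of single cells, thinned cells and Ccr2 under 500 CPM, where 1 was also lower. In monocytes, WT TAC against WT sham gave 16 at a fold of 1.5, 29 with the Chil3 gate, 13 with the mean of single cells, 12 with thinned cells and 35 without 5 cells. CD3ϵ-/- TAC against CD3ϵ-/- sham gave 30 at 1.5, 11 with 50 CPM and 31 without 5 cells, and 1 lower at 1.5 and with double gate limits. CD3ϵ-/- sham against WT sham gave 2 higher at 1.5, 1 with 1 CPM added and thinned cells, 5 with the Chil3 gate and 8 without 5 cells; the lower count was 0 with 50 CPM, 1 with the Chil3 gate, 5 with the mean of single cells, 3 with thinned cells and 2 without 5 cells. CD3ϵ-/- TAC against WT TAC gave 1 higher at 1.5 and 2 lower with the Chil3 gate. The group labelled CD8-depleted against WT TAC gave 16 at 1.5, 1 with 50 CPM, double limits, the Chil3 gate or Ly6c2 of at least 2000 CPM, and 4 with Ly6c2 under 2000 CPM.

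Direction turned for single genes in monocytes of CD3ϵ-/- sham against WT sham: with the Chil3 gate Ifit1 was 0.046, Ifit3 0.56, Ifit3b 0.68 and Usp18 0.32, and without 5 cells Ifit1 was 0.034, Ifit3 0.97, Ifit3b 0.85, Usp18 0.043, Dhx58 0.28 and Ifi44 0.62. In the dendritic gate without 5 cells, Rsad2 was −0.14 in WT TAC against WT sham, Mx1 −0.10 in CD3ϵ-/- TAC against CD3ϵ-/- sham, Ifit1 0.24 in CD3ϵ-/- sham against WT sham, Ifit3 −0.12 and Mx1 −0.13 in CD3ϵ-/- TAC against WT TAC, and Rsad2 0.38 in the group labelled CD8-depleted against WT TAC. With thinned cells Rsad2 was −0.11 in CD3ϵ-/- TAC against CD3ϵ-/- sham. The splits by Lyve1, Folr2 or Cd163, by Ccr2, by Ly6c2 and of cells outside the gates, and the fixed makeup, were chosen after seeing the data.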
